A study of Homo sapiens with 32 samples.

Results

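This report describes what siRNA against YTHDF2 did to the RNA of HEK293T cells whose METTL3 was inhibited with STM2457. It rests on 6 of 32 RNA sequencing libraries, 3 from cells given STM2457 and YTHDF2 siRNA and 3 from cells given STM2457 alone, chosen by their labels, and all genes were described. HEK293T cells descend from human embryonic kidney and express the large T antigen of SV40. In both groups STM2457 was present at 20 µM in 0.2% DMSO for the last 6 h. The siRNA was used at 20 nM, transfected 24 h after seeding, with the inhibitor added 42 h later and the cells taken 48 h after transfection. Cells without the siRNA are labelled WT, and no label tells whether a control siRNA was given to them, so transfection and loss of YTHDF2 cannot be told apart. A matching pair of groups with 0.2% DMSO in place of the inhibitor (3 libraries with the siRNA, 3 without) was used to ask whether the effect of the siRNA differed between inhibited and uninhibited cells. Libraries of the 9 h and emetine experiments gave the gene sets that STM2457 raised or lowered, and a comparison of STM2457 with DMSO in cells without the siRNA. STM2457 was again at 20 µM in 0.2% DMSO, for 9 h in the first and 6 h in the other. The groups compared in the emetine experiment also had DMSO for 2 h in place of emetine. They were fitted together with groups given 1.8 µM emetine for 2 h.

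N6-methyladenosine (m6A) is a mark on mRNA that a complex built on the methyltransferase METTL3 writes, mostly near stop codons and in 3′ UTRs. YTHDF2 binds the mark in the cytoplasm and brings the mRNA to the CCR4-NOT deadenylase, which shortens the poly(A) tail and starts decay. YTHDF1 and YTHDF3 are its close relatives, and YTHDC1 and YTHDC2 are the other readers with a YTH domain. STM2457 occupies the catalytic pocket of METTL3, so that new mRNA is made without the mark while older marked mRNA turns over. An siRNA cuts the mRNA it pairs with along its whole length, and can also lower other mRNAs that pair only with the seed, the short stretch at the 5′ end of its guide strand, in the manner of a microRNA.

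Gene counts in the 6 libraries came to 38386469 to 42303951, and 16662 genes passed the filter on low counts. The 11 genes fixed as markers of HEK293T-type cells were all detected, with a summed level of 1226 to 1370 CPM (counts scaled to library size) under STM2457 alone and 1029 to 1102 with the siRNA. VIM, the intermediate filament vimentin, made up the largest share. Of the 11, 6 fell, among them the embryonic RNA-binding protein LIN28B (by 1.34 on the log2 scale), and 3 rose, the intermediate filament genes KRT8 (0.83), INA (0.68) and KRT18 (0.30). Fibroblast markers summed to 22.2 to 27.3 CPM without and 20.6 to 23 CPM with the siRNA, most of it COL1A1, and of the 6 tested 4 fell and none rose. Hepatocyte markers summed to at most 0.257 CPM, blood cell markers to at most 3.27 CPM with PTPRC and HBB at 0, and KRT10 was the single keratinocyte marker above the filter. STM2457 replicate 3 stood apart from the other libraries. Ribosomal protein mRNAs took 7.43% of its counts against 6.19% to 6.64% in the other 5 libraries, and its score on the third principal component was -12.2, where the other 11 libraries of the knockdown experiment lay between -5.4 and 5.6. Values without it are therefore also given for some results, and lists given without such a value can also move with it. Whether replicates came from separate cultures is not stated, so the p-values reflect only how these libraries vary, which may be technical.

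YTHDF2, the targeted gene (chr1:28736621-28769775 on GRCh38, plus strand), stood at 582, 617 and 656 CPM in the 3 libraries with STM2457 alone and at 76.2, 74.0 and 80.5 CPM with the siRNA. The groups did not overlap, and 12.4% of the level remained, a log2 change of -3.01 ± 0.06 (SE, n = 3 per group; adjusted p = 5.1e-17). In DMSO 24.3% remained, from 179, 182 and 174 CPM to 44.5, 43.1 and 42.2 CPM. YTHDF2 itself belongs to the genes that STM2457 raised in the other experiments, and the remaining level was higher under the inhibitor than in DMSO. The fall was larger under STM2457 by 0.96 on the log2 scale (adjusted p = 6.6e-07), a call that, like every call of a difference between the effects, was lost with spike-in scaling (smallest adjusted p over all genes 0.43). METTL3, the inhibited enzyme, went from 73.7, 78.2 and 75.1 CPM to 61.4, 62.9 and 62.6 CPM, a fall of 0.28 ± 0.04 (SE, adjusted p = 2.7e-05) that no longer passed with ribosomal protein scaling (adjusted p = 0.081) or spike-ins (0.47). Its gene overlaps TOX4, and the strand setting of the counting is not given in the sources used here.

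Of the YTHDF2 relatives, YTHDF3 fell from 220, 209 and 258 CPM to 65.3, 69.6 and 70.1 CPM. The groups lay far apart, with a log2 change of -1.75 ± 0.07 (adjusted p = 2.3e-13), against -1.14 in DMSO (difference -0.61, adjusted p = 0.00026, lost with spike-in scaling). YTHDF1 stood at 160, 161 and 174 CPM without and 154, 162 and 157 CPM with the siRNA, and these overlapped. Its log2 change of -0.07 did not pass the test (adjusted p = 0.24) and became 0.025 and 0.022 when libraries were scaled to ribosomal protein mRNAs and to the ERCC spike-ins. YTHDC1, the nuclear reader, rose by 0.22 (adjusted p = 0.0013), a call lost with spike-in scaling. Among the 8 m6A writers tested, 2 rose and 3 fell, where 29.8% of all genes rose and 30.1% fell. With ribosomal protein scaling 3 rose and 1 fell, and with spike-ins none rose and 1 fell. RBM15, which guides the complex to its sites, rose by 0.23 from 177, 181 and 192 to 208, 224 and 213 CPM, and CBLL1 (HAKAI), another member of the complex, fell by 0.59.

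**Figure D1:**
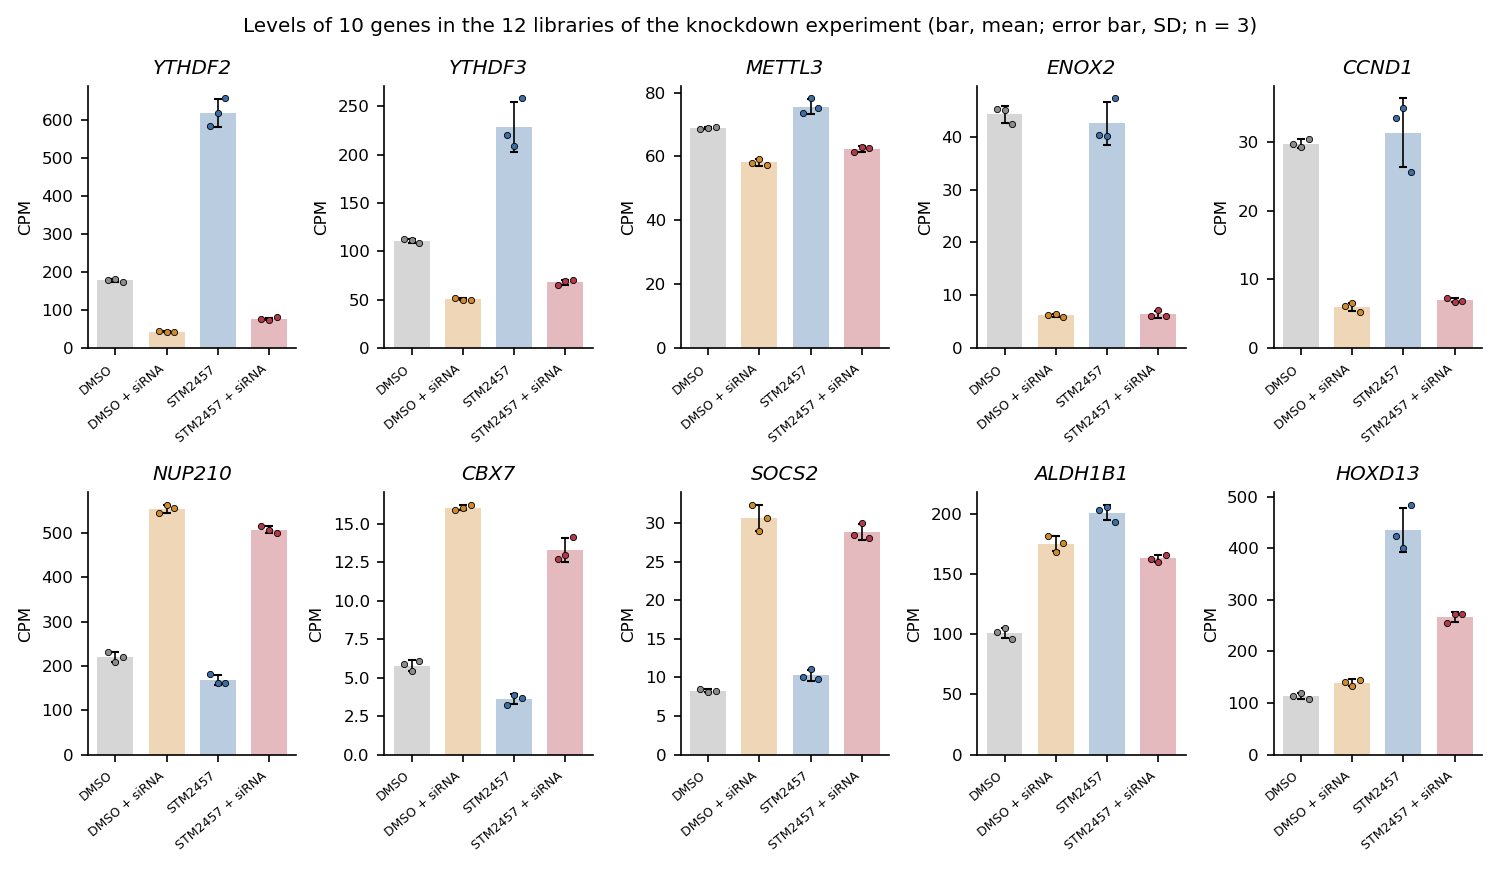
Level in CPM of 10 genes in the 12 libraries of the knockdown experiment, 3 per group; each point is a library, bars are means and error bars SDs, and every axis starts at 0. YTHDF2 under STM2457 fell from 582 to 656 CPM without to 74.0 to 80.5 CPM with the siRNA, and ALDH1B1 was lower with the siRNA under STM2457 but higher with it in DMSO.

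In all, 4972 of the 16662 genes tested were higher with the siRNA (29.8%) and 5009 were lower (30.1%), so that 59.9% passed an adjusted p of 0.05 in either direction (edgeR quasi-likelihood test, Benjamini-Hochberg over all genes tested). A change of at least 2-fold was found upward for 663 genes (3.98%) and downward for 887 (5.32%). The 3 libraries of one group did not overlap with the 3 of the other for 10364 genes (62.2%). The median log2 change over all genes was -0.0053. Without STM2457 replicate 3 the counts were 4834 and 5207. Scaling to the ERCC spike-ins, RNAs added from outside, left 2599 higher and 1851 lower, and scaling to ribosomal protein mRNAs 4892 and 3345. Spike-ins made up 0.415%, 0.328% and 0.463% of counts with STM2457 alone and 0.472%, 0.365% and 0.327% with the siRNA added. This share varied within each group, so spike-in scaling can also widen the spread between replicates of every gene. In poly(A) libraries of whole cultures, fewer cells of a kind and less RNA per cell cannot be told apart. Of 13456 protein coding genes tested, 4536 were higher and 4396 lower, while of 3080 non-coding genes and pseudogenes 417 were higher and 592 lower. At the 2-fold line, CASC2 lay just inside and ZC3HC1 just outside of it, both downward.

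The protein coding genes that fell most, after YTHDF2, were ENOX2, EPHA3, DYNLT3, UMAD1, SCD5, MKX, RNF6, SLC35F1, CCND1, CETN2 and KCNQ5, with log2 changes from -2.73 to -2.13. By role, ENOX2 is an NADH oxidase of the cell surface, EPHA3 an ephrin receptor, SCD5 a fatty acid desaturase, CETN2 a centriole protein and KCNQ5 a potassium channel. What 11 of these 12 genes, YTHDF2 included, had in common was a run of 7 bases, GCAAGCA, in the annotated transcript. It lay in the 3′ UTR of 8 and only in the coding sequence of YTHDF2, DYNLT3 and SCD5, and MKX lacked it in both. The word was picked from the 3′ UTRs of all coding genes lowered at least 2-fold, these 12 among them. Its presence here is thus partly set by that choice. Of all 13180 coding genes tested with an annotated 3′ UTR, 21.2% held it in 3′ UTR or coding sequence. The sites below are shown because the word in capitals was the most over-represented one in lowered genes. Each is given 5′ to 3′ on the transcript strand, from GENCODE release 29, with its position on GRCh38.
YTHDF2, coding sequence, chr1:28742854-28742875, plus strand: gtagcacagaagttGCAAGCAa
ENOX2, 3′ UTR, chrX:130624050-130624071, minus strand: gtatttataataatGCAAGCAt
ENOX2, 3′ UTR, chrX:130624000-130624021, minus strand: aaagaatgtactgaGCAAGCAa
EPHA3, 3′ UTR, chr3:89479926-89479947, plus strand: ttgtttcttttaaaGCAAGCAa
SCD5, coding sequence, chr4:82680784-82680805, minus strand: gtggctgtttgttcGCAAGCAt
RNF6, 3′ UTR, chr13:26213102-26213123, minus strand: taacttattagacaGCAAGCAa
CCND1, 3′ UTR, chr11:69652386-69652407, plus strand: ccatgtacttgtttGCAAGCAg
CETN2, 3′ UTR, chrX:152827810-152827831, minus strand: cttctttttctactGCAAGCAc
A match of 7 letters is a description of the transcript and shows neither a binding site nor a cause. The sequence of the siRNA is not given in the sources used here, and whether the word matches its guide strand was not tested.

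ENOX2 went from 40.4, 40.1 and 47.3 CPM to 6.07, 7.17 and 5.98 CPM, a log2 change of -2.73 ± 0.08 (SE, adjusted p = 3.1e-14). EPHA3 went from 25.6, 20.8 and 23.1 CPM to 4.64, 3.61 and 3.62 CPM, a log2 change of -2.55 ± 0.10 (adjusted p = 6.6e-13). CCND1, cyclin D1, went from 33.5, 34.9 and 25.6 CPM to 7.33, 6.70 and 6.86 CPM (log2 change -2.17 ± 0.10, adjusted p = 3.6e-12). For these 3 genes the highest library with the siRNA was well below the lowest without it. SCD5 fell from 60.4, 52.6 and 46.8 CPM to 11.4, 9.15 and 11.2 CPM. RNF6, a ubiquitin ligase, fell from 74.2, 78.7 and 84.7 CPM to 17.4, 16.8 and 16.8 CPM. MKX, a homeobox factor and the gene of the 12 without the word, fell from 9.57, 9.24 and 9.43 CPM to 1.9, 2.0 and 1.97 CPM. All 12 also fell in DMSO, where the libraries were different ones. UMAD1 (RPA3), CCND1 (LTO1) and DYNLT3 (a gene without a symbol) overlap other coding genes, given in brackets, and reads of such pairs cannot be assigned with certainty.

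The word was found by counting every run of 7 bases in the 3′ UTRs of the 641 coding genes that fell at least 2-fold and had an annotated 3′ UTR, against the 13180 such genes tested. GCAAGCA, read on the transcript strand only, had 225 sites in the lowered genes, 3.33 times the density over all genes, the highest ratio of the 11778 words with at least 20 sites. The next words were CAAGCAA and AGCAAGC, which overlap it by 6 bases, both at 2.20. A 3′ UTR with the word was held by 29.8% of the lowered genes, 7.69% of all genes and 3.36% of the 476 genes that rose at least 2-fold. In coding sequences the density ratio was 2.46, with 27.9% of the lowered and 14.7% of all genes holding it, and in 5′ UTRs it was 1.34, on 12 sites. Counting 3′ UTR and coding sequence together, the word was present in 51.5% of the lowered, 11.6% of the raised and 21.2% of all genes. It led under each of the other settings tried for the lowered genes, with a ratio of 2.43 for a 1.5-fold line, 3.51 under spike-in scaling and 3.23 without STM2457 replicate 3.

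The change followed the number and place of the sites. Coding genes with no site in 3′ UTR or coding sequence (10382 genes) had a median log2 change of 0.05, those with a site only in the coding sequence (1785) -0.13, those with 1 site in the 3′ UTR (903) -0.31 and those with 2 or more there (110) -0.59. The share that fell was 28.3%, 44.2%, 57.0% and 78.2% in the same order. Among genes with a single 3′ UTR site the base after the word went along with the size. The median was -0.47 when it was A (250 genes) and -0.43 when it was T (211), against -0.19 for G (274) and -0.18 for C (167). This split is also one by base composition. Among genes without GCAAGCA in 3′ UTR or coding sequence, the median was -0.12 in the fifth with the lowest 3′ UTR GC content. It was 0.30 in the fifth with the highest. Flank and composition were not separated. Genes with CAAGCAA but without GCAAGCA in the 3′ UTR stood at -0.13 (1096 genes), and those with AGCAAGC but without GCAAGCA there at -0.03 (584). Both groups can hold GCAAGCA in the coding sequence, and a gene can be in both. These medians describe the comparison on which the word was chosen. The 6 DMSO libraries are not in that comparison, but they shared its fit, and so its filter, scaling and estimate of spread. In DMSO the 4 medians by site were 0.09, -0.14, -0.30 and -0.58. With the 6 libraries under STM2457 fitted alone the same word led, at a density ratio of 3.43. In cells without the siRNA STM2457 gave no fall with the number of sites. After 9 h of STM2457 the medians went the opposite way, at -0.02, 0.01, 0.08 and 0.13, with 33.5% of genes without a site and 54.2% of those with 2 or more in the 3′ UTR higher, and after 6 h in the emetine experiment (without emetine) 0.01, 0.03, 0.04 and 0.04. Many genes with the word did not fall, and 311 of the 641 lowered genes lacked it in both places. Leaving out all genes with the word left 557 genes lowered at least 2-fold, of 13864. Both counts include non-coding and other genes that were not searched for the word.

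**Figure D2:**
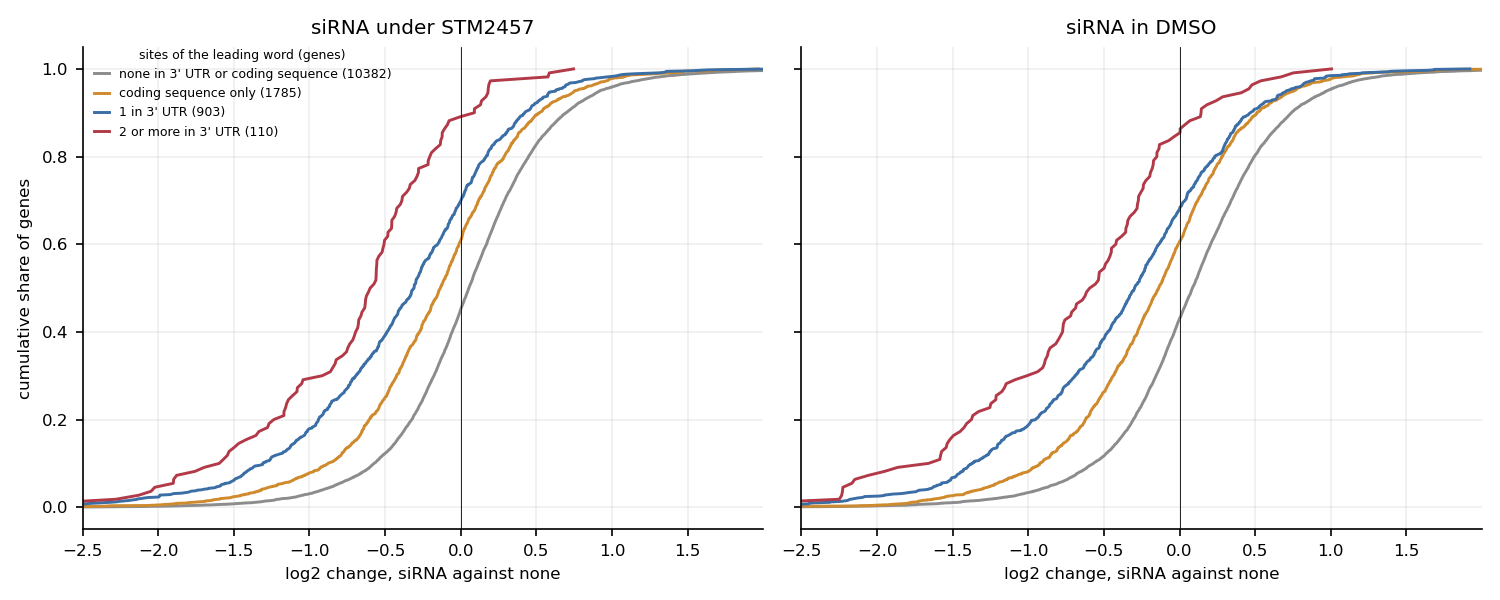
Cumulative share of coding genes (y axis) against the log2 change with the siRNA (x axis), under STM2457 on the left and in DMSO on the right, by where the transcript holds GCAAGCA. Under STM2457 the curves shift to the left from no site (median 0.05) through coding sequence only (-0.13) and 1 site in the 3′ UTR (-0.31) to 2 or more (-0.59).

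The coding genes that rose most were ZNF585A, CBX7, TMBIM1, GAL3ST1, L1CAM, PLEKHG4, SPATA20, NUP210, GNPTG, HEG1, ADAMTS7 and PRTG, with log2 changes from 1.92 to 1.56. NUP210 (chr3:13316235-13420309), a membrane protein of the nuclear pore, was the most abundant of them. It went from 181, 161 and 162 CPM to 515, 508 and 500 CPM, a log2 change of 1.59 ± 0.06 (adjusted p = 1.3e-13). CBX7 (chr22:39120167-39152674), a chromobox subunit of Polycomb complexes, went from 3.23, 3.86 and 3.67 CPM to 12.7, 13 and 14.1 CPM (1.89 ± 0.08, adjusted p = 1.9e-12). In both genes every library with the siRNA lay far above the highest library without it. HEG1, a mucin-like membrane protein, rose from 16.1, 15.2 and 14.1 CPM to 45.4, 46.8 and 42.8 CPM. L1CAM, a neural adhesion molecule, rose from 3.28, 2.96 and 2.51 CPM to 9.63, 8.37 and 9.87 CPM. PRTG (protogenin), a receptor of the immunoglobulin superfamily, rose from 25, 22.3 and 22.7 CPM to 64.1, 74.0 and 69.1 CPM. All 12 also rose in DMSO. Of the 12, 2 held GCAAGCA (HEG1 in the 3′ UTR, PLEKHG4 in the coding sequence), and 7 overlap another coding gene, among them ZNF585A (ZNF420), TMBIM1 (PNKD) and GNPTG (UNKL).

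Raised and lowered genes also differed in composition and level. The median GC content of the 3′ UTR was 54.2% in the 476 raised genes, 37.5% in the 641 lowered and 42.5% in all 13180. In the coding sequence it was 60.6%, 48.9% and 52.7%. The raised genes had shorter 3′ UTRs (median 643 bases, against 1537 in the lowered genes and 1026.5 in all). The median level under STM2457 alone was 1.10 CPM in the raised and 13.1 CPM in the lowered genes, both below the 30.5 CPM of all. STM2457 alone is the baseline of the comparison, so raised genes start lower and lowered genes higher partly by how they were picked. With coding genes ranked by 3′ UTR GC content and cut into 5 equal groups, from lowest to highest, the median log2 change was -0.17, -0.14, -0.03, 0.13 and 0.26, and among genes without GCAAGCA in 3′ UTR or coding sequence it still went from -0.12 to 0.30. The pentamer GGACT, a frequent form of the m6A consensus read on the transcript strand, was present at a median 1.15 per kb in raised, 0.757 per kb in lowered and 0.932 per kb in all transcripts. GC content, length and level move together across genes, and their part in the changes was not tested.

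Of the non-coding genes named by the same rule, NEAT1, the scaffold RNA of paraspeckles, went from 13.1, 14.1 and 11 CPM to 5.12, 5.38 and 5.13 CPM, a log2 change of -1.29 ± 0.14 (adjusted p = 3.2e-07). MIR222HG, host of miR-221 and miR-222, changed by -1.23, and the snoRNA hosts SNHG19 and SNHG10 by -1.18 and -1.12. SNHG10 overlaps GLRX5. SLC9A3-AS1 (1.19), CTC-338M12.4 (1.12), LINC02593 (1.08) and ENSG00000272692 (1.07) rose most, and SLC9A3-AS1 and CTC-338M12.4 overlap coding genes. The rule took only genes whose groups did not overlap.

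Gene lists were read against the 29.8% higher, 30.1% lower and median of -0.0053 over all genes tested. Of the 15 subunits of the CCR4-NOT and PAN deadenylases 5 rose and 7 fell (median -0.0039, but 0.06 with ribosomal protein scaling, 0.04 with spike-ins, where 2 rose and 1 fell, and -0.15 without STM2457 replicate 3). The catalytic subunit CNOT6 fell from 179, 168 and 177 CPM to 93.7, 96.3 and 89.9 CPM (log2 change -0.90), and the subunit CNOT3 rose by 0.81, with an overlap with LENG1. Of 12 decapping and P body genes 5 rose and none fell (median 0.11; 1 rose with spike-in scaling), with LSM14B at 0.62. The median was 0.066 without STM2457 replicate 3 or without siRNA and STM2457 replicate 2, and 2 fell without STM2457 replicate 2. Of these 12 genes, 4 hold GCAAGCA in 3′ UTR or coding sequence, and with all libraries none of the 4 fell. Of the 10 Argonaute and small RNA genes 5 rose and 3 fell (1 and 1 with spike-ins). AGO4 rose from 12.3, 12.5 and 9.92 CPM to 32.9, 33.7 and 33.2 CPM (1.52 ± 0.08, adjusted p = 1.8e-11), while AGO1 fell by 1.16. Both hold GCAAGCA in the 3′ UTR, AGO4 at 1 place and AGO1 at 2, and the raised CNOT3 holds it in the coding sequence, as do the raised YTHDC1 and RHOB. Of the 5 YTH readers only YTHDF2 and YTHDC1 hold it, and YTHDF3, which fell, does not. Of 25 subunits of the RNA exosome and RNase P/MRP 3 rose and 12 fell (median -0.17), among them the nuclease DIS3, down by 0.43. With ribosomal protein scaling 4 rose and 5 fell, and with spike-in scaling none of the 25 passed. Other RNA-binding readers and erasers of m6A were split 4 against 4 of 11 (with spike-ins none rose and 2 fell), with FMR1 down from 155, 150 and 136 CPM to 60.2, 58.6 and 62.0 CPM (-1.29) and IGF2BP1 down by 0.72, and both hold the word in the 3′ UTR. Of these 11 genes, 5 hold it in 3′ UTR or coding sequence, and only FMR1 and IGF2BP1 among the 5 fell.

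Nonsense-mediated decay is a separate route that removes mRNAs with early stop codons. Of 15 of its factors 7 rose and 4 fell (4 and 2 with spike-ins), with UPF3B up by 0.92, SMG5 up by 0.75 and MAGOHB down by 1.32. Of 16 described substrates 6 rose and 10 fell (median -0.22; 5 fell with ribosomal protein scaling and 2 with spike-ins). SNHG16 fell from 189, 189 and 191 CPM to 95.5, 97.7 and 97.1 CPM (-0.97 ± 0.04, adjusted p = 2.6e-12), and ATF4, the transcription factor of the integrated stress response, rose by 0.44.

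Of 18 mRNAs widely described as m6A-modified 5 rose and 6 fell under STM2457, with a median of 0.01 (-0.0065 without STM2457 replicate 3 and -0.012 without replicate 2), and in DMSO 10 rose and 6 fell, with a median of 0.27. For the difference between the effects 5 of the 18 passed, all negative, where 6.93% of all genes were negative and 1.78% positive, and none passed with spike-in scaling. SOCS2, a feedback inhibitor of cytokine receptors, rose from 10, 11 and 9.74 CPM to 28.5, 30.1 and 28.1 CPM (1.49 ± 0.07, adjusted p = 1.7e-12), less than in DMSO (1.89). MYC fell from 370, 362 and 358 CPM to 209, 211 and 206 CPM (-0.80). CREBBP, a histone acetyltransferase with 4 copies of GCAAGCA in its coding sequence, fell by 1.32. Of the 18 mRNAs, 4 hold the word in 3′ UTR or coding sequence, and 2 of these fell. In the SOCS family 7 of 8 rose and none fell (5 with spike-in scaling), with a median of 0.65 (0.75 in DMSO) that was positive under each scaling. SOCS7 rose from 45.2, 47.6 and 42.2 CPM to 79.3, 95.4 and 85.3 CPM (0.95).

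In the cell cycle machinery that acts on the retinoblastoma protein, genes moved in opposite directions. The D cyclins CCND1 and CCND2 and their kinase CDK6 fell. CCND2 went from 97.6, 92.4 and 89.5 CPM to 22.8, 23.2 and 22.7 CPM (-2.02 ± 0.06, adjusted p = 2.4e-14). CDK6 went from 106, 99.6 and 90.9 CPM to 35.3, 39.0 and 35.4 CPM (-1.43). All 3 hold GCAAGCA in the 3′ UTR. E2F1, which acts downstream of them, rose from 60.7, 58.6 and 56.4 CPM to 104, 105 and 104 CPM (0.83), and CCNE1, cyclin E1, rose by 0.83. Over this list of D cyclins, CDK4/6 and their inhibitors 11 of 18 rose and 6 fell (median 0.28, positive under each scaling; 7 and 3 with spike-ins). The G1/S list held 8 that rose and 7 that fell of 23, and the G2/M list 8 and 9 of 23, with AURKA down by 0.94. With spike-in scaling 3 rose and 2 fell in the first and none rose and 2 fell in the other. The replication-dependent histones, whose mRNAs lack a poly(A) tail and are thus only partly captured here, had 1 that rose and 11 that fell of 26 (median -0.47).

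Each of the metabolic and ribosomal lists described here had more members that fell than rose. Of 79 nuclear subunits of the respiratory chain 48 fell and 4 rose (median -0.27), and 5 of the 48 hold GCAAGCA in 3′ UTR or coding sequence. NDUFV1 went from 134, 145 and 138 CPM to 87.8, 86.0 and 89.4 CPM (-0.66 ± 0.05, adjusted p = 1.2e-09). Of 77 mitochondrial ribosomal proteins 38 fell and 9 rose (median -0.18), with MRPL9, which holds GCAAGCA in its 3′ UTR and overlaps OAZ3, down by 1.31. Of these 38 only 3 hold the word in 3′ UTR or coding sequence. Of 78 cytosolic ribosomal proteins 28 fell and 5 rose (median -0.14). All 3 lists moved with STM2457 replicate 3, the library with the high ribosomal protein share. Without it 42 respiratory chain genes fell and 5 rose (median -0.17), 34 mitochondrial ribosomal proteins fell and 13 rose (median -0.09), and 23 cytosolic ones fell and 16 rose (median near 0). Under spike-in scaling 6, 9 and 4 members of the 3 lists fell. Of 23 genes of cholesterol synthesis 15 fell and 3 rose (median -0.29; 4 fell under spike-in scaling), with INSIG1, the sterol sensor, down from 405, 342 and 346 CPM to 246, 221 and 229 CPM (-0.65) and IDI1 down by 0.72. Among fatty acid genes the elongase ELOVL2 fell by 1.88, ACSL1 by 1.41 and ELOVL6 by 1.19, with 9 of 20 lower and 6 higher (6 and 3 with spike-ins). Of 25 genes of hypoxia and glycolysis 13 fell and 5 rose (8 and 4 with ribosomal protein scaling, 3 and 0 with spike-ins), with NDRG1, which holds the word in its 3′ UTR, down from 115, 124 and 118 CPM to 40.8, 42.4 and 43.0 CPM (-1.5).

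Stress and signalling lists differed from each other. Of 20 genes of the unfolded protein response 12 rose and 2 fell (median 0.23, positive under each scaling; 6 and 0 with spike-ins). ERN1, the sensor IRE1 of the endoplasmic reticulum, rose from 17.6, 15.3 and 14 CPM to 25.9, 27.4 and 27.2 CPM (0.78), and SYVN1, a ubiquitin ligase of the same pathway, rose by 0.61. Of 21 BMP and TGF-beta targets and feedback genes 10 fell and 7 rose (median -0.35, negative under each scaling; 7 fell and 2 rose with spike-ins). BAMBI, a decoy receptor, fell from 73.4, 71.2 and 80.9 CPM to 20.5, 20.6 and 20.3 CPM (-1.88 ± 0.07, adjusted p = 3.0e-13), and the receptor BMPR2 fell by 0.93. The immediate early list held 15 that rose and 11 that fell of 36 (10 and 7 with spike-ins), with EGR1 up from 6.34, 5.43 and 5.59 CPM to 12.8, 13.9 and 13.5 CPM (1.21) and RHOB up by 1.09. Of 30 interferon response genes 6 rose and 12 fell, but with ribosomal protein scaling 7 rose and 4 fell, and with spike-ins 4 and 3. Of 14 sensors of foreign nucleic acid 6 rose and 3 fell (2 and 2 with spike-ins), with RIGI up by 0.52 and IFIH1 down by 0.89.

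The list with the most members was that of the ZNF genes. Of 424 ZNF genes, which encode zinc finger proteins, 189 rose and 77 fell (median 0.17, positive under each scaling; 114 and 26 with spike-ins), against 252 and 58 in DMSO. ZNF134 rose from 20.4, 22.2 and 23.6 CPM to 53.1, 60.6 and 55.9 CPM (1.36). Of 37 HOX genes 9 rose and 18 fell (median -0.10; 11 fell with ribosomal protein scaling, and 7 fell and 3 rose with spike-ins). HOXD13 fell from 423, 401 and 484 CPM to 255, 273 and 272 CPM (-0.71 ± 0.06, adjusted p = 2.7e-08), HOXA5 fell by 0.79 and HOXB13 rose by 1.01. SOX2, a stem cell factor with the word in its 3′ UTR, fell from 13.4, 14.3 and 13.4 CPM to 6.02, 6.60 and 6.14 CPM (-1.13).

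**Figure D3:**
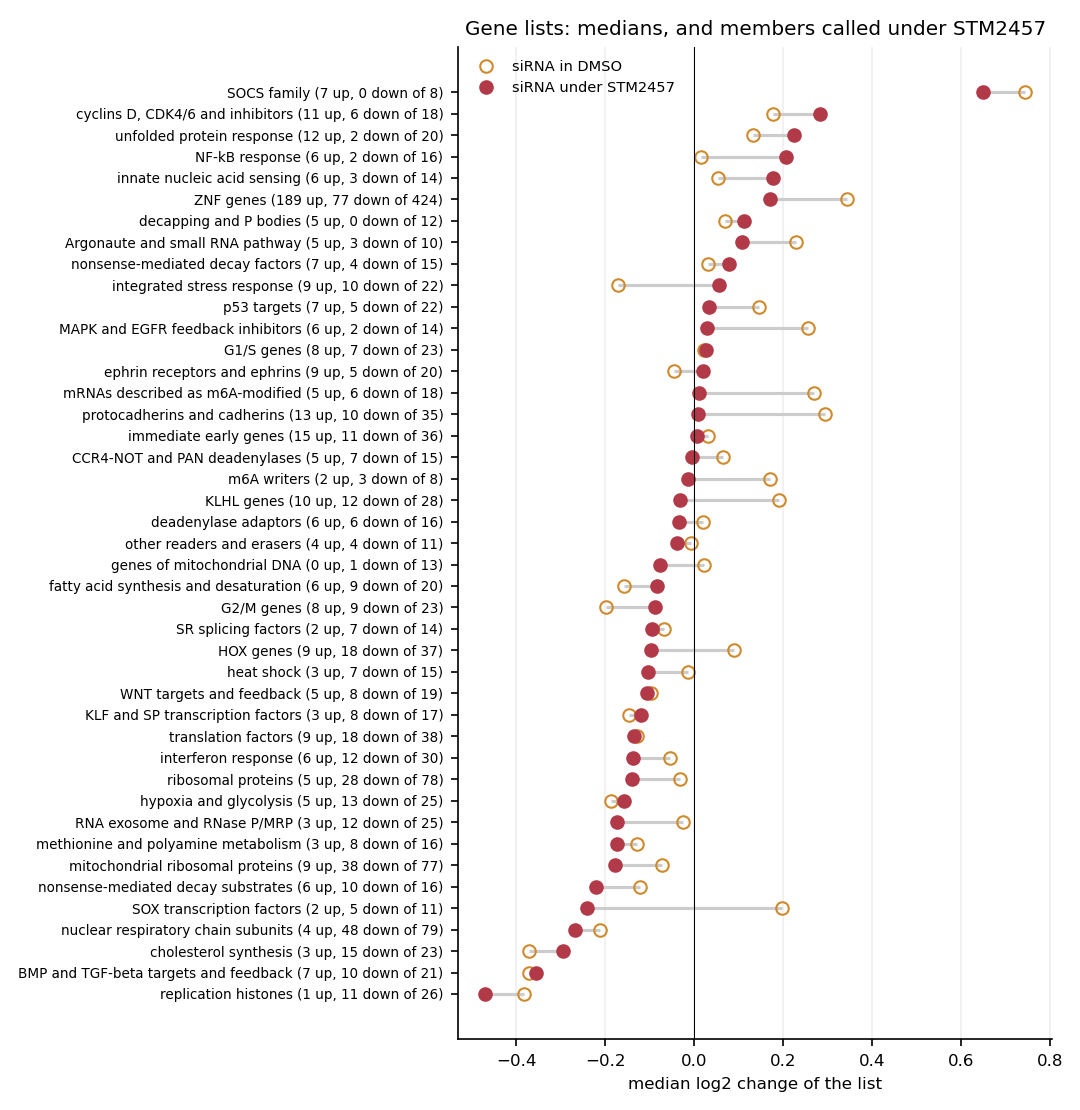
Median log2 change with the siRNA (x axis) of the gene lists (y axis), under STM2457 and in DMSO, with the number of genes that rose and fell under STM2457. The SOCS family lies farthest to the right, at 0.65 under STM2457, and the nuclear respiratory chain subunits lie at -0.27.

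The genes that STM2457 raises can be asked what the siRNA does to them once the inhibitor is present. A set came from other experiments, none of whose libraries are among these 6: 749 genes that STM2457 raised at least 1.5-fold both at 9 h and at 6 h without emetine, of which 747 were tested here. With the siRNA under STM2457, 209 of them rose and 308 fell, with a median log2 change of -0.08 (quartiles -0.46 and 0.25). In DMSO, where 33.1% of all genes tested were higher and 29.3% lower (62.4% in either direction), 391 rose and 170 fell, with a median of 0.24. For the difference of the effects 6 were positive and 299 negative (median -0.29), against 1.78% positive and 6.93% negative over all genes tested. Scaling to ribosomal protein mRNAs or spike-ins moved the median under STM2457 to 0.013 and 0.0018, while the median difference was -0.22 and -0.23, with 59 and 0 genes negative. In the 521 set genes without GCAAGCA the medians were 0.0098 under STM2457 and 0.37 in DMSO. The converse set, 282 genes that STM2457 lowered (277 tested), had 65 that rose and 50 that fell under STM2457 (median 0.0029) and 65 and 79 in DMSO (median -0.024). A 2-fold line for the sets left 120 raised genes tested, of which 25 rose and 54 fell (median -0.19), against 57 and 20 in DMSO.

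**Figure D4:**
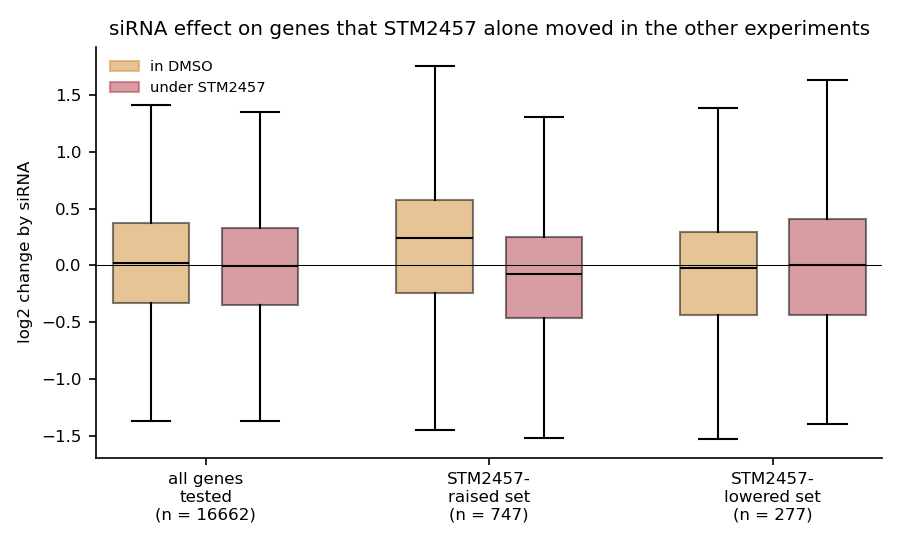
Log2 change with the siRNA for the genes that STM2457 raised or lowered in experiments with no library in common, and for all genes tested. For the 747 raised genes the median was -0.08 under STM2457 and 0.24 in DMSO, and for the 277 lowered genes 0.0029 and -0.024. Lines in boxes are medians, boxes quartiles, and whiskers reach to the last gene within 1.5 times the box height.

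Over all genes, the siRNA comparison under STM2457 and the one in DMSO share no library. In DMSO 4.44% of genes rose and 5.78% fell at least 2-fold. Of the genes that passed under STM2457 83.1% also passed in DMSO, and 79.8% the other way. Of the 8299 that passed in both, 97.9% had the same direction. Of the genes lowered at least 2-fold under STM2457 74.2% were so in DMSO, and of those raised 63.0%. Across all 16662 genes the log2 changes had a Pearson correlation of 0.860, and 0.915 across the 9942 genes whose mean log2 CPM was 3 or more, which describes genes that share their libraries and is no test.

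**Figure D5:**
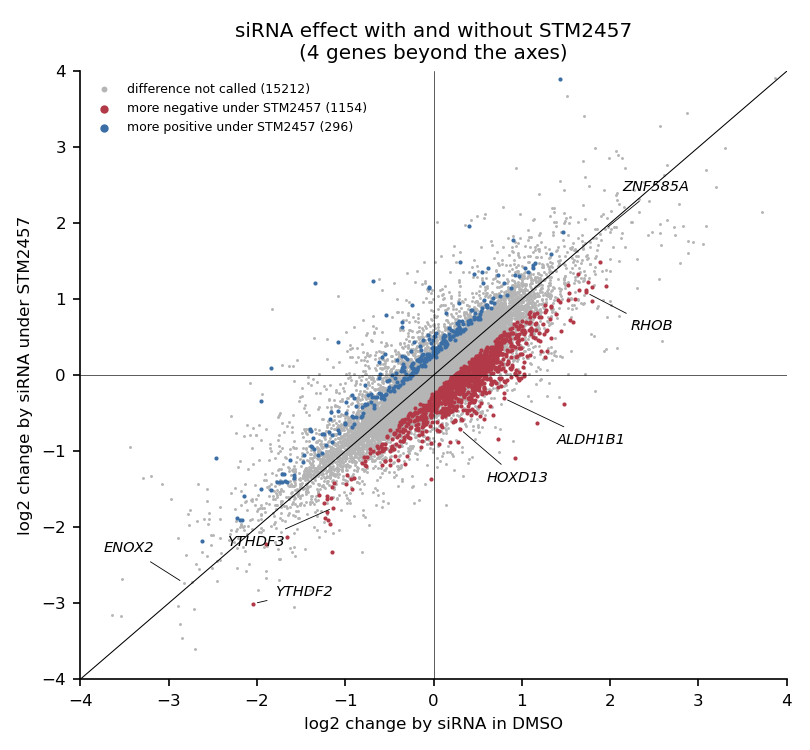
Log2 change with the siRNA under STM2457 (y axis) against that in DMSO (x axis), 1 point per gene tested, with genes whose difference passed the test in colour. Most points lie near the diagonal (Pearson correlation 0.860), and of the coloured genes 1154 lie below it and 296 above.

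The difference itself passed the test for 1450 genes (8.7%), 296 more positive and 1154 more negative under STM2457, with 14 (0.084%) and 20 (0.12%) past 2-fold. Of the 1154, 837 had risen in DMSO, where 33.1% of all genes tested rose. Under STM2457 300 of the 1154 rose, 477 fell and 377 did not pass, against 29.8% higher and 30.1% lower over all genes. A negative difference picks genes with a high effect in DMSO or a low effect under STM2457. These counts are thus partly set by that choice. The most negative differences belonged to ALDH1B1, ANKRD34A, IMP3, KBTBD7, INTS5 and ZNF772. ALDH1B1, a mitochondrial aldehyde dehydrogenase, had 204, 206 and 194 CPM under STM2457 and 163, 160 and 166 CPM with the siRNA added (-0.30, no longer passing with ribosomal protein or spike-in scaling). In DMSO it went the other way, from 102, 105 and 96.3 CPM to 181, 169 and 176 CPM (0.79), and the difference was -1.10 (adjusted p = 9.5e-08). KBTBD7, an adaptor of ubiquitin ligases, rose in DMSO from 17.1, 17.7 and 17 CPM to 36.8, 35 and 33.7 CPM. Under STM2457 it overlapped, at 45.4, 44.7 and 48.1 CPM without and 45.6, 47.8 and 44.2 CPM with the siRNA (difference -1.03, adjusted p = 6.6e-07). HOXD13 (difference -1.01, adjusted p = 2.1e-06) went from 114, 119 and 107 CPM to 140, 133 and 145 CPM in DMSO, against its fall under STM2457. RBM15 rose less under STM2457 than in DMSO, 0.23 against 0.71 (difference -0.49, adjusted p = 0.00014).

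Positive differences were led by BCHE, ARC, ANTXR2, ARMH4, KCNJ14 and CCNJL. BCHE, butyrylcholinesterase, fell in DMSO from 17.1, 15.8 and 18.5 CPM to 11.2, 12.6 and 11.2 CPM. Under STM2457 it stood at 4.98, 5.36 and 5.36 CPM without and 7.2, 5.90 and 6.01 CPM with the siRNA, and the difference was 0.84 (adjusted p = 0.00033). Ribosomal protein scaling left 9 positive and 122 negative. Spike-in scaling left none in either direction with edgeR (178 positive and 217 negative at an unadjusted p of 0.05), while DESeq2 with its own size factors gave 444 and 1201. Without STM2457 replicate 3 there were 715 positive and 1481 negative, and over the 12 left-out libraries the counts ran from 146 to 715 and from 733 to 1481.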

How the data were processed

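The deposited files hold raw read counts per Ensembl gene ID, poly(A)-selected and strand-specific per the labels' protocols. STAR 2.7.3a, featureCounts (Subread 2.0.0), SAMtools 1.9, Trimmomatic, cutadapt (1.18 and 4.0) and FastQC 0.11.8 are named, with GRCh38.p12, per the submitters' processing notes. The sources used here give neither their order nor the annotation release or strand setting. Each library listed 60662 gene IDs, 58587 of them in GENCODE release 29, and 92 ERCC spike-ins, which were set apart.

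The 12 libraries of the knockdown experiment were fitted together with edgeR 4.0.16 in R 4.3.3 (TMM, filterByExpr, quasi-likelihood F tests, Benjamini-Hochberg over all 16662 genes, threshold 0.05). Log2 changes are siRNA against none, with SE. CPM are counts scaled by TMM library size. The fit was tested on simulated data. Alternatives were DESeq2 1.42.0, other scalings, no filter, the 6 libraries alone, a replicate block and each library left out. Words of 7 bases were counted in the longest coding transcript per gene with Python 3.11.15. The text names YTHDF2, METTL3, the 12 coding and 4 non-coding genes with the largest change in each direction (adjusted p at most 0.05, mean log2 CPM at least 2, groups not overlapping), up to 4 genes per list by smallest p, and the 6 largest differences in each direction. The members and lists were chosen with earlier results of these data known.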

Additional observations from a re-analysis of the deposited data

Results flagged for a closer look

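Genes are given here whose siRNA effect differed between STM2457 and DMSO by a test of the difference itself (edgeR, adjusted p at most 0.05), the 6 largest in each direction, as the log2 effect under STM2457 minus that in DMSO. The difference was -1.10 for ALDH1B1, -1.07 for ANKRD34A, -1.04 for IMP3 (overlaps SNX33), -1.03 for KBTBD7, -1.03 for INTS5 and -1.02 for ZNF772. It was 0.84 for BCHE, 0.79 for ARC, 0.70 for ANTXR2, 0.67 for ARMH4 (overlaps ACTR10 and PSMA3), 0.67 for KCNJ14 (overlaps GRWD1) and 0.66 for CCNJL. ANKRD34A, INTS5 and ZNF772 each overlap a coding gene without a symbol, as does KCNJ14. ALDH1B1 and IMP3 fell under STM2457 (-0.30 and -0.40) and rose in DMSO (0.79 and 0.64), and BCHE rose under STM2457 (0.28) and fell in DMSO (-0.55). The libraries with and without siRNA under STM2457 overlapped for KBTBD7, INTS5 and ARC. The effects of ALDH1B1, IMP3 and BCHE under STM2457 no longer passed with spike-in scaling, nor that of BCHE without STM2457 replicate 1 or without siRNA and STM2457 replicate 1. All 12 kept their sign and lost their call under spike-in scaling, and ARC, ANTXR2, KCNJ14 and CCNJL also lost it under ribosomal protein scaling.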

How the results depend on the processing

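Spike-in scaling left 2599 genes higher and 1851 lower with the siRNA under STM2457, and 2653 and 2229 in DMSO. For the difference it left 0 and 0 with edgeR (178 and 217 at an unadjusted p of 0.05). DESeq2, with its own size factors and without spike-ins, gave 444 and 1201. Ribosomal protein scaling left 9 and 122 differences, and moved the split under STM2457 to 4892 higher and 3345 lower, with the median of all genes up by 0.09. The STM2457-raised set went from a median of -0.08 to 0.013 with ribosomal protein scaling, 0.0018 with spike-ins and -0.19 at a 2-fold line. The STM2457-lowered set went to 0.089 and 0.084 with the same scalings. With genes that hold the word left out, chosen after seeing the data, 557 genes fell at least 2-fold, counting genes not searched for the word. The density ratio of the word was 2.43 at a 1.5-fold line. Leaving out each library in turn gave 4435 to 4834 genes higher and 4738 to 5207 lower, 610 to 693 and 890 to 970 at 2-fold, 146 to 715 positive and 733 to 1481 negative differences, and set medians of -0.098 to -0.088 (raised) and -0.038 to 0.0065 (lowered); the cause was not tested. Signs turned for KBTBD7 (0.084 with ribosomal protein scaling, 0.077 with spike-ins, -0.050 to 0.014 over left-out libraries), INTS5 (0.015, ribosomal protein scaling), YTHDF1 (0.025 and 0.022) and MT-ND3 (-0.34 to 0.021 over left-out libraries), none of which had passed the test. Libraries were not treated as paired by replicate number, since no label states a pairing. Between the 2 groups under STM2457, deviations from the group mean correlated at 0.583, 0.0838 and 0.307 for equal numbers. For unequal numbers the correlations ran from -0.378 to 0.193. The fit with a replicate block gave 5016 higher and 5046 lower. At this depth low genes limit the precision: the median level of the genes raised at least 2-fold was 1.10 CPM.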
